A study of Mus musculus with 46 samples.

Results

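The genes of nucleotide and one-carbon synthesis are 32 of the 21671 genes in the expression table, taken by their symbols: 13 of de novo purine synthesis, 5 of de novo pyrimidine synthesis, 6 of deoxynucleotide formation, 2 nucleoside diphosphate kinases and 6 of the folate one-carbon cycle. The choice used symbols and was made with earlier results of these data known. RNA was sequenced from livers and liver tumours of FVB mice, in which a tetracycline-controlled Myc transgene (tet-Myc) is switched on by the liver-specific transactivator LAPtTA from before birth and switched off by doxycycline in the food. Myc-off tumours carried tet-Myc and LAPtTA and came from mice fed doxycycline for 16 hours (8 libraries, 3 animal IDs). MycVD tumours carried LAPtTA and a V394D form of tet-Myc that remained on; this mutant of Myc contacts its partner Miz1 poorly (11 libraries, 10 IDs). Myc tumours carried tet-Myc and LAPtTA with the transgene on (16 libraries, 7 IDs), and control livers are labelled as normal liver without further genotype (11 libraries, 11 IDs). The tumours were taken whole, so a value mixes tumour cells with other cells of the tissue.

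Purine rings are built stepwise on phosphoribosyl pyrophosphate up to inosine monophosphate, from which separate branches lead to adenine and guanine nucleotides. Pyrimidine rings are built first and joined to the sugar afterwards, and ribonucleotide reductase then makes the deoxynucleotides that DNA replication uses. Both purine synthesis and the making of thymidylate draw on folate-bound carbon units, which come largely from serine through a cytosolic and a mitochondrial set of enzymes. Liver is a main organ of purine synthesis and folate metabolism, and several of these genes are known direct targets of Myc, which binds the E-box motif CACGTG.

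Promoter windows of 300 bases, from 250 before to 50 after each annotated start (RefSeq, GRCm38.p6), were found for 29 of the 32 genes. The motif CACGTG, which reads the same on both strands, stood in the windows of 6 of these 29 genes (20.7%), and in those of 2187 of all 27025 genes with a window (8.09%). A match is a description of these letters, not a site of binding. The 6 genes are shown with the motif in capitals and 12 bases on each side, 5′ to 3′ on the gene's strand, because they hold the letters that Myc is known to bind.
Paics (chr5:76951087-76951116, plus strand, motif starting 203 bases before the start): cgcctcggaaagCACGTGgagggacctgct
Atic (chr1:71557137-71557166, plus strand, 7 bases before the start): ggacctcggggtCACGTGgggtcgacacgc
Impdh2 (chr9:108560314-108560343, plus strand, 110 bases before the start): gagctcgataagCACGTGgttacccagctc
Tyms (chr5:30073669-30073698, minus strand, 61 bases before the start): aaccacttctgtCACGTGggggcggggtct
Dtymk (chr1:93802065-93802094, minus strand, 148 bases before the start): gtctcgaacttcCACGTGaccagagcctgc
Nme1 (chr11:93968273-93968302, minus strand, 18 bases before the start): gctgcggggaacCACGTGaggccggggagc
Among these 6 genes the differences between Myc tumours and control livers ran from a log2 fold change of -0.13 for Paics to 1.92 for Tyms. Impdh1, Rrm2, Mthfd2 and Mthfd1l, which rose most of the 32, had no CACGTG in their windows, and bases outside the windows were not searched. The part of the motif in these differences was not tested.

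Levels are eRPKM, exonic RPKM as deposited, averaged over the tumours of an animal ID. Recovered depth ran from 3.25 to 12.6 M reads per library, with medians of 7.14, 7.81, 9.655 and 7.32 M in Myc-off, MycVD, Myc and control libraries. The row named Myc lay at 4.68, 9.11 and 4.16 eRPKM in the Myc-off IDs, 2.67 to 9.86 (median 6.77) in MycVD, 6.27 to 10.8 (median 7.12) in Myc and 1.46 to 18.2 (median 5.56) in control IDs. These ranges overlap, and since it is not known whether transgene reads were counted there, the row does not check the labels. Mki67, a marker of cycling cells, averaged 63.98 ± 12.5, 103 ± 13.7, 93.8 ± 9.17 and 3.22 ± 2.09 eRPKM (SD; n = 3, 10, 7 and 11 IDs) in Myc-off, MycVD, Myc and control. Alb, the albumin gene, averaged 194 ± 4.06, 136 ± 33.3, 101 ± 26.02 and 209 ± 59.5. In single Myc-off libraries Alb ran from 69.4 to 297 eRPKM. Mki67 and Alb averaged 604 and 1199 reads per kb, and values above 400 reads per kb appear compressed. Every tumour ID lay above every control ID in Mki67, at 49.9 to 73.7 (median 68.4) eRPKM in Myc-off, 78.5 to 121 (median 106) in MycVD and 83.3 to 109 (median 92.8) in Myc against 0.969 to 7.95 (median 2.59) in control IDs. The MycVD and Myc ranges overlapped in both genes, and the Alb ranges of Myc-off and control also overlapped, so neither gene checks the MycVD labels against the Myc labels. All Myc-off IDs are numbered above those of the other groups, and all MycVD IDs above all Myc IDs, so that date or batch and group cannot be told apart in those comparisons.

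Most of the 32 genes were higher in Myc tumours than in control livers. By limma on log2(eRPKM + 0.5), with a Benjamini-Hochberg adjusted p under 0.05 over all 14566 genes tested, 26 of the 32 genes were higher and 2 lower, where 50.4% of all genes tested were called higher and 29.7% lower. The median log2 fold change of the 32 was 1.44, against 0.28 over all genes tested, and 21 of the 32 rose at least 2-fold, where 24.2% of all genes tested did. Every Myc ID lay above every control ID in 24 of the 32 genes, and in 35.1% of all genes tested. All 10 markers of cycling cells were also higher, at a summed level of 577.5 to 752.5 eRPKM in Myc IDs against 45.2 to 125.0 in control IDs. All 8 hepatocyte markers were lower, at 353 to 651 eRPKM against 837 to 1616. All 7 erythroid markers were higher too, at a summed 64.2 to 256 eRPKM in Myc IDs against 36.9 to 73.8 in control IDs. Of 6 endothelial markers 4 were lower, at 46.8 to 71.5 against 141 to 272. No marker was at 0 in all IDs of a group. In whole tissue, more cells of a type and more RNA per cell cannot be told apart, and the part of these marker lists in the result was not tested. Median-ratio scaling moved the median of all genes to 0.05 and the share of higher genes among all calls to 51.9%, against 62.9% as deposited, and gave 26 of the 32 higher and 4 lower.

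In Myc-off tumours, 27 of the 32 genes were lower than in Myc tumours and 1 was higher, where 28.0% of all genes tested were called lower and 22.8% higher. Their median log2 fold change was -1.19, against 0.0 over all genes tested, and 19 of the 32 fell at least 2-fold, where 9.79% of all genes tested did. Of the cycling markers 9 of 10 were lower as well, at a summed 281 to 369 eRPKM in Myc-off IDs against 577.5 to 752.5 in Myc IDs, though Mki67 itself was not called (log2 fold change -0.56 ± 0.32, adjusted p = 0.15). Of the 8 hepatocyte markers 5 were higher and none was lower, and all 5 cholangiocyte markers were higher. The summed cholangiocyte level was 32.9 to 134 eRPKM in Myc-off IDs and 9.67 to 30.7 in Myc IDs. Of 6 endothelial markers 2 were higher, at a summed 45.2 to 87.8 eRPKM in Myc-off IDs against 46.8 to 71.5 in Myc IDs. Of 5 T cell markers 1 was higher, at 10.7 to 12.7 against 5.69 to 9.07, without overlap. The part of these lists was not tested. Set against control livers instead, Myc-off tumours had 13 of the 32 genes higher and 6 lower, where 37.3% and 20.9% of all genes tested were called. With libraries scaled by their median ratio this split became 10 higher and 10 lower. These comparisons share the Myc or the control samples, so their values stand side by side here and are not independent of each other.

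**Figure D1:**
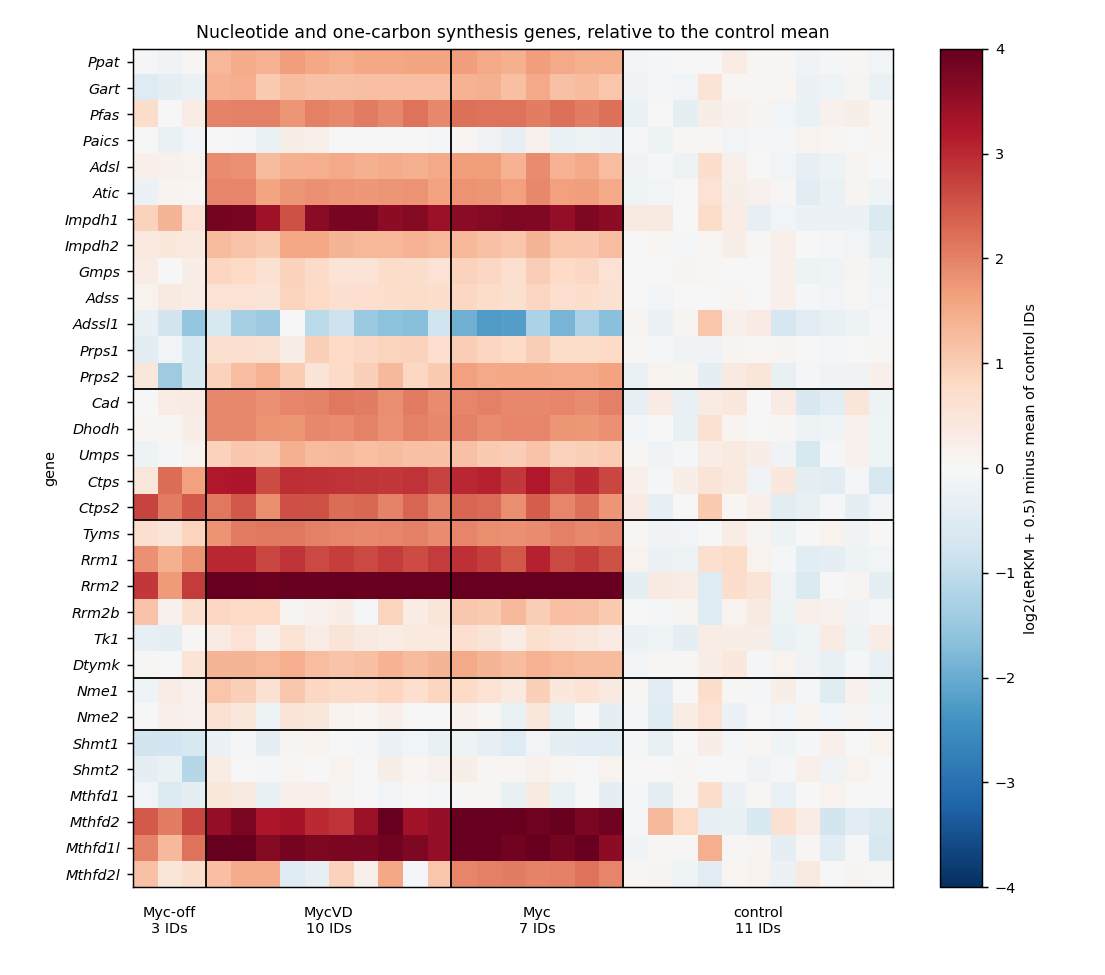
Heat map of the 32 genes (rows, in blocks of purine, pyrimidine, deoxynucleotide, nucleoside diphosphate kinase and folate genes) in the 31 animal IDs (columns, by group). Colour is log2(eRPKM + 0.5) minus the mean of the 11 control IDs, from blue (lower) through white (equal) to red (higher), cut at -4 and 4; the MycVD and Myc columns are red for most genes, the Myc-off columns are pale for most, and the Adssl1 row is blue in most tumours.

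De novo purine synthesis rose almost as a whole in Myc tumours: 11 of 13 genes were higher, 1 lower and 1 uncalled. Of all genes tested, 50.4% were called higher and 29.7% lower. Phosphoribosyl pyrophosphate itself is made by Prps1 and Prps2. Prps1 stood at 19.4, 24.3 and 17.00 eRPKM in the Myc-off IDs, 43.8 to 52.8 (median 46.3) in Myc and 23.8 to 28.4 (median 26.3) in control IDs. Prps2 stood at 21.3, 5.39 and 9.76 in the Myc-off IDs, 44.2 to 48.3 (median 45.3) in Myc and 11.4 to 21.5 (median 14.4) in control IDs. Myc IDs lay above all control IDs and all Myc-off IDs for both genes. The log2 fold changes of Myc over control were 0.84 ± 0.08 for Prps1 (adjusted p = 1.2e-11) and 1.55 ± 0.16 for Prps2 (adjusted p = 2.7e-10). Those of Myc-off over Myc were -1.23 ± 0.11 and -2.08 ± 0.23 (adjusted p = 7.5e-11 and 6.8e-09). Both were also lower in Myc-off tumours than in control livers, with log2 fold changes of -0.39 for Prps1 (adjusted p = 0.0017) and -0.53 for Prps2 (adjusted p = 0.037). The Prps2 value rests on ID151964, without which it was -0.08 (adjusted p = 0.77). Without ID153344 the Prps1 and Prps2 values were -0.27 and -0.48 (adjusted p = 0.0503 and 0.12). A retrogene copy of Prps1, Prps1l3, is a separate row, so how its shared reads were divided is uncertain.

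Ppat, the amidotransferase of the committed step, stood at 15.8, 14.8 and 17.3 eRPKM in the Myc-off IDs, 44.9 to 53.6 (median 47.2) in Myc and 14.9 to 20.3 (median 16.04) in control IDs. ID151964 lay just below the lowest control ID and the other Myc-off IDs within the control range, and every Myc ID lay above both groups. Ppat rose by a log2 fold change of 1.53 ± 0.06 in Myc tumours over control (adjusted p = 6.7e-21) and fell by 1.57 ± 0.08 in Myc-off over Myc (adjusted p = 1.4e-15). The later steps moved in the same directions. Gart, which carries 3 activities of the pathway, averaged 18.8 ± 1.72 eRPKM in Myc-off, 61.6 ± 6.32 in Myc and 24.9 ± 4.45 in control IDs (SD; n = 3, 7 and 11). Pfas, which makes formylglycinamidine ribonucleotide, averaged 14.4 ± 3.65, 50.6 ± 2.54 and 11.1 ± 1.70 in the same groups. Adsl, the lyase of the pathway, averaged 22.2 ± 0.634, 58.6 ± 9.32 and 20.04 ± 4.61. Atic, which closes the ring to inosine monophosphate, likewise averaged 10.3 ± 1.30, 35.3 ± 3.34 and 10.6 ± 2.26. In Myc over control the log2 fold changes of Gart, Pfas, Adsl and Atic lay between 1.30 and 2.15, and in Myc-off over Myc between -1.37 and -1.80, with non-overlapping ID means in every case. Of all 14566 genes tested, 5106 had every Myc ID above every control ID, and 3774 had every Myc-off ID below every Myc ID. After switch-off Adsl and Atic were not called against control. Gart was lower (log2 fold change -0.38 ± 0.11, adjusted p = 0.0045) and Pfas higher (0.35 ± 0.12, adjusted p = 0.012), the last not with scaled or quantile-normalised libraries nor without ID150584.

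Paics, which carries the carboxylase and the next synthetase step, was the exception among these genes. It averaged 659 reads per kb, and values above 400 reads per kb appear compressed. It stood at 82.4, 68.6 and 76.9 eRPKM in the Myc-off IDs, 65.7 to 92.4 (median 72.04) in Myc and 71.3 to 90.4 (median 81.7) in control IDs. All ranges overlapped, and no test called it (log2 fold change of Myc over control -0.13 ± 0.07, adjusted p = 0.078; of Myc-off over Myc 0.01 ± 0.10, adjusted p = 0.93). Its sign depended on the scaling: Myc over control was -0.38 with median-ratio scaling (adjusted p = 9.9e-05) and 0.29 with quantile normalisation (adjusted p = 8.4e-08). Paics and Ppat start 276 bases apart on opposite strands (GRCm38.p6), and their annotated exons share 272 bases (GENCODE vM21), so that unstranded reads from that stretch cannot be assigned. As deposited, Ppat averaged 48.3 eRPKM in Myc and 16.4 in control IDs, and Paics averaged 75.6 and 82.4. Ppat averaged 309 reads per kb and Paics 659, so the sizes of their changes cannot be set against each other.

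The guanine branch held the purine gene with the widest range. Impdh1, an isozyme of the dehydrogenase that makes xanthosine monophosphate, stood at 5.23, 7.20 and 4.04 eRPKM in the Myc-off IDs, 33.8 to 39.9 (median 38.2) in Myc and 1.53 to 4.48 (median 2.30) in control IDs. Every Myc ID lay far above every other ID of these 3 groups. The log2 fold change was 3.65 ± 0.16 in Myc over control (adjusted p = 2.9e-19) and -2.69 ± 0.23 in Myc-off over Myc (adjusted p = 3.7e-11). Impdh2, the other isozyme, was far more abundant in control liver, with 61.6, 62.4 and 60.7 eRPKM in the Myc-off IDs, 99.5 to 121 (median 106) in Myc and 36.00 to 54.5 (median 47.4) in control IDs. Its log2 fold changes were 1.20 ± 0.07 in Myc over control and -0.80 ± 0.10 in Myc-off over Myc (adjusted p = 4.7e-16 and 7.9e-08). Impdh2 averaged 759 reads per kb and Impdh1 212, and values above 400 reads per kb appear compressed, so the sizes of their changes cannot be set against each other as deposited. For Impdh2 the 3 Myc-off IDs were still above all control IDs, while for Impdh1 ID153344, at 4.04 eRPKM, lay within the control range. Gmps, the last step to guanosine monophosphate, averaged 29.6 ± 2.99 eRPKM in Myc-off, 45.9 ± 4.51 in Myc and 26.1 ± 2.45 in control IDs, with log2 fold changes of 0.81 ± 0.07 and -0.62 ± 0.10 (adjusted p = 2.3e-12 and 2.7e-06).

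The adenine branch held 2 synthetases that moved in opposite directions. Adss, the broadly expressed adenylosuccinate synthetase, averaged 30.2 ± 2.43 eRPKM in Myc-off, 41.7 ± 2.80 in Myc and 25.1 ± 1.68 in control IDs (log2 fold change of Myc over control 0.72 ± 0.05, adjusted p = 1.3e-13; of Myc-off over Myc -0.46 ± 0.08, adjusted p = 7.8e-06). Adssl1, known as the muscle isozyme, stood at 12.4, 9.20 and 4.95 eRPKM in the Myc-off IDs, 2.86 to 6.22 (median 3.88) in Myc and 9.65 to 33.9 (median 15.1) in control IDs. All Myc IDs lay below all control IDs, and the Myc-off IDs spanned the gap. Adssl1 fell by a log2 fold change of 1.78 ± 0.23 in Myc over control (adjusted p = 2.3e-08). In Myc-off over Myc it was higher by 0.92 ± 0.32 (adjusted p = 0.019), which did not hold without ID150584 (0.64, adjusted p = 0.16) or ID151964 (0.85, adjusted p = 0.076).

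De novo pyrimidine synthesis rose in Myc tumours in all 5 genes, each at least 2-fold and with every Myc ID above every control ID, against the 24.2% and 35.1% of all genes tested given above. Cad, the multifunctional enzyme that starts the pathway, stood at 17.4, 21.9 and 22.3 eRPKM in the Myc-off IDs, 65.8 to 72.7 (median 69.3) in Myc and 11.4 to 24.6 (median 17.7) in control IDs. The Myc IDs varied little and the Myc-off IDs lay inside the control range. Cad averaged 431 reads per kb, and values above 400 reads per kb appear compressed. The part of this in the narrow Myc range was not tested. Cad rose by a log2 fold change of 1.95 ± 0.12 in Myc over control (adjusted p = 7.7e-16) and fell by 1.74 ± 0.17 in Myc-off over Myc (adjusted p = 4.4e-10). Dhodh, the mitochondrial dehydrogenase that makes orotate, averaged 7.15 ± 0.532 eRPKM in Myc-off, 25.01 ± 1.84 in Myc and 6.55 ± 1.37 in control IDs. Umps, which turns orotate into uridine monophosphate, averaged 32.1 ± 3.996, 66.9 ± 4.57 and 33.1 ± 6.19. At an average of 476 reads per kb, the values of Umps also appear compressed. Dhodh and Umps fell in Myc-off over Myc, with log2 fold changes of -1.74 ± 0.12 and -1.05 ± 0.14 (adjusted p = 5.0e-13 and 1.3e-07), and neither was called against control afterwards (adjusted p = 0.3 and 0.88).

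The 2 genes for cytidine triphosphate synthetase parted after switch-off. Ctps stood at 8.28, 29.7 and 19.3 eRPKM in the Myc-off IDs, 39.8 to 57.8 (median 50.1) in Myc and 3.59 to 8.71 (median 5.51) in control IDs. Ctps2 stood at 27.3, 17.7 and 23.1 in the Myc-off IDs, 14.1 to 22.2 (median 19.04) in Myc and 2.67 to 8.23 (median 3.51) in control IDs. For Ctps the Myc-off IDs lay below all Myc IDs and differed widely among themselves, while for Ctps2 ID150584 and ID153344 lay above the Myc range and ID151964 within it. The log2 fold changes of Myc over control were 2.94 ± 0.17 for Ctps and 2.11 ± 0.15 for Ctps2 (adjusted p = 4.0e-16 and 8.0e-14). Those of Myc-off over Myc were -1.49 ± 0.24 for Ctps (adjusted p = 6.8e-06) and 0.31 ± 0.22 for Ctps2, which was not called (adjusted p = 0.25). Against control livers Myc-off tumours were higher in both, by 1.45 ± 0.23 for Ctps and 2.42 ± 0.21 for Ctps2 (adjusted p = 3.4e-06 and 2.3e-11). The tumours of each animal ID had 8.84, 10.7 and 5.35 eRPKM of Ctps in the 3 of ID150584, 32.3 and 27.2 in the 2 of ID151964 and 22.96, 16.6 and 18.4 in the 3 of ID153344. On the log2 scale the SD of Ctps was 0.35 within and 0.91 between the Myc-off IDs. It was 0.30 within the 5 Myc IDs with several tumours and 0.19 between the means of all 7 Myc IDs.

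**Figure D2:**
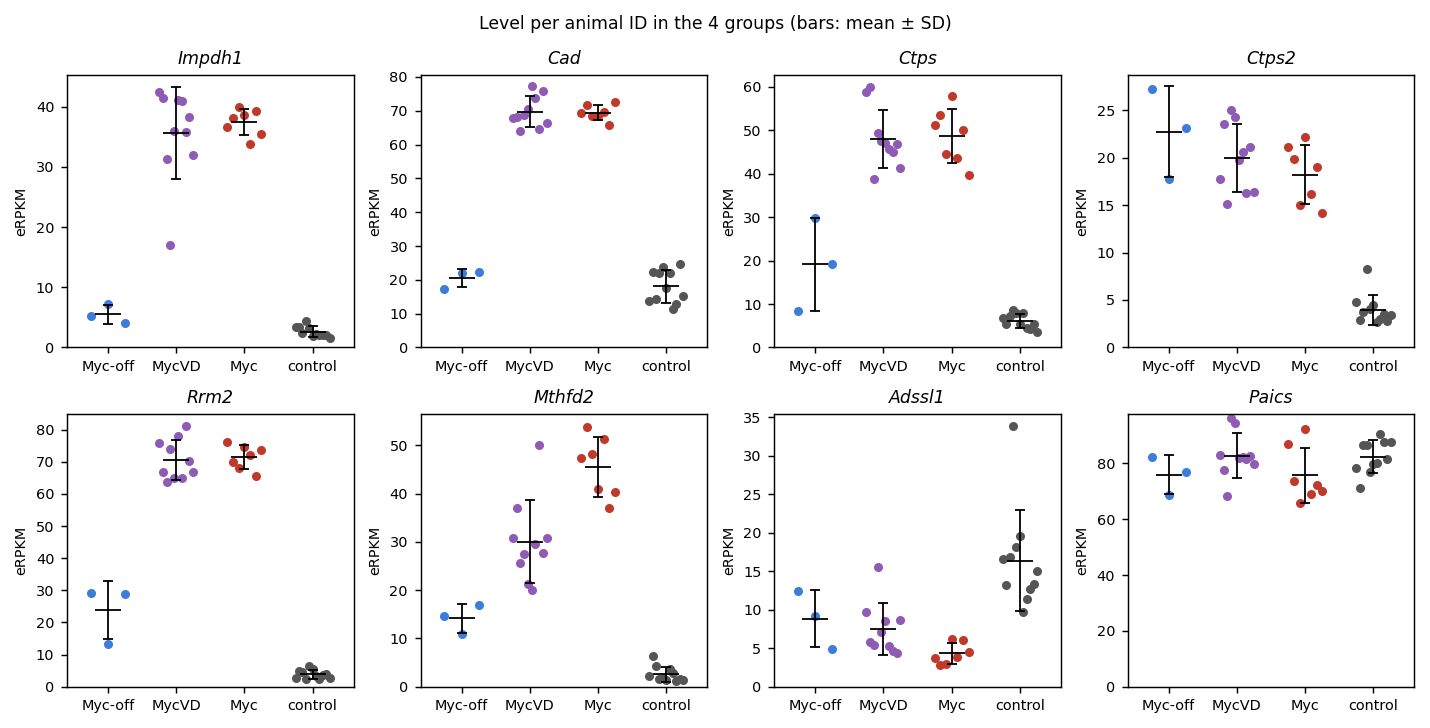
Level of 8 of the genes in eRPKM (vertical axes, from 0) in each animal ID (points) of the Myc-off, MycVD, Myc and control groups; black bars give mean ± SD over IDs. Impdh1, Cad, Ctps, Rrm2 and Mthfd2 are high in MycVD and Myc and lower in Myc-off, Ctps2 stays high in Myc-off, Adssl1 is lowest in Myc, and Paics is level.

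All 6 genes of deoxynucleotide formation were higher in Myc tumours than in control livers, and all 6 were lower in Myc-off than in Myc tumours. Of all genes tested, 50.4% were called higher in the first comparison and 28.0% lower in the second. The subunits of ribonucleotide reductase differed in how far they moved. Rrm2, the small subunit that is known to follow the cell cycle, stood at 29.2, 13.3 and 28.8 eRPKM in the Myc-off IDs, 65.6 to 76.2 (median 72.3) in Myc and 2.33 to 6.41 (median 3.63) in control IDs. It rose by a log2 fold change of 4.09 ± 0.15 in Myc over control (adjusted p = 4.8e-21) and fell by 1.65 ± 0.22 in Myc-off over Myc (adjusted p = 1.9e-07), the 3 groups being separate in every ID. Rrm2 averaged 419 reads per kb, and values above 400 reads per kb appear compressed. Rrm1, the large subunit, averaged 24.2 ± 3.63 eRPKM in Myc-off, 51.2 ± 7.78 in Myc and 7.41 ± 2.33 in control IDs, with log2 fold changes of 2.74 ± 0.13 and -1.06 ± 0.18 (adjusted p = 1.4e-18 and 1.3e-05). Rrm2b, the small subunit that p53 is known to induce, stood at 6.63, 3.09 and 4.51 in the Myc-off IDs, 5.90 to 7.36 (median 6.32) in Myc and 1.78 to 3.67 (median 2.69) in control IDs. It was higher in Myc tumours by 1.12 ± 0.14 (adjusted p = 1.5e-08). Its lower value in Myc-off than in Myc tumours stood at the threshold (-0.47 ± 0.20, adjusted p = 0.0498) and was not called in 8 of the alternatives tried.

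The thymidylate genes followed. Tyms, thymidylate synthase, averaged 10.7 ± 1.48 eRPKM in Myc-off, 25.9 ± 1.35 in Myc and 6.50 ± 0.711 in control IDs. Dtymk, the kinase that acts next, averaged 19.5 ± 4.65, 43.4 ± 2.74 and 16.9 ± 2.71. Their log2 fold changes were 1.92 ± 0.06 and 1.34 ± 0.08 in Myc over control (adjusted p = 3.8e-22 and 1.6e-15) and -1.25 ± 0.09 and -1.16 ± 0.12 in Myc-off over Myc (adjusted p = 2.4e-12 and 1.7e-09). Against control livers Myc-off tumours were higher in Rrm2 (2.45 ± 0.20), Rrm1 (1.68 ± 0.17), Tyms (0.67 ± 0.09) and Rrm2b (0.65 ± 0.19), with adjusted p-values of 1.6e-11, 1.1e-09, 1.0e-07 and 0.0039. Rrm2b was not called without ID150584 (0.40, adjusted p = 0.11). The summed level of the cycling markers was likewise 281 to 369 eRPKM in Myc-off IDs against 45.2 to 125.0 in control IDs, and its part in this was not tested.

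Tk1, the cytosolic thymidine kinase of replicating cells, was high in normal liver. It stood at 34.5, 32.5 and 44.6 eRPKM in the Myc-off IDs, 52.5 to 68.2 (median 61.6) in Myc and 33.4 to 53.5 (median 38.5) in control IDs. Its difference between Myc and control was the smallest of the called rises (log2 fold change 0.49 ± 0.10, adjusted p = 3.0e-05). Tk1 averaged 445 reads per kb, and values above 400 reads per kb appear compressed. The control IDs formed 2 separate sets. In the 5 control IDs in which Xist exceeded the Y-linked Ddx3y, Tk1 lay at 50.8 to 53.5 eRPKM (median 52.6), and in the 6 in which Ddx3y exceeded Xist it lay at 33.4 to 38.5 (median 36.8). The labels give no sex, so the sets, called female and male here, were defined from these 2 genes. In a limma fit of group and sex over all genes, in which 1.78% of all genes tested were called in control liver, the female minus male difference of Tk1 was 0.51 ± 0.07 (adjusted p = 4.4e-05). It was -0.03 ± 0.08 in MycVD (adjusted p = 0.89) and 0.00 ± 0.09 in Myc tumours (adjusted p = 1), where 3.71% and 0.0412% of all genes tested were called and by limma 0 of the 32 (2 in MycVD and 0 in Myc at an unadjusted p under 0.05). Mthfd2 was the other gene of the 32 called in control livers, with a female minus male difference of -0.93 ± 0.21 (adjusted p = 0.016), at 1.16 to 1.73 eRPKM in the 5 female and 1.54 to 6.31 in the 6 male IDs. Exons of Tk1 and of Afmid on the other strand share 83 bases in GENCODE vM21, and Afmid averaged 17.00 ± 4.21 eRPKM in Myc-off, 8.86 ± 1.16 in Myc and 70.3 ± 5.10 in control IDs. Its part in the Tk1 values was not tested.

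The nucleoside diphosphate kinases Nme1 and Nme2, which balance the triphosphate pools, changed little in their deposited values. They averaged 478 and 704 reads per kb, and values above 400 reads per kb appear compressed. Nme1 stood at 35.2, 49.02 and 44.8 eRPKM in the Myc-off IDs, 51.7 to 77.6 (median 57.7) in Myc and 28.1 to 64.7 (median 40.5) in control IDs. Nme2 stood at 79.2, 91.4 and 88.7 in the Myc-off IDs, 61.5 to 109 (median 78.4) in Myc and 56.5 to 118 (median 75.4) in control IDs. The Myc and control ranges overlapped for both. Nme1 was higher in Myc tumours (log2 fold change 0.58 ± 0.12, adjusted p = 3.7e-05) and lower in Myc-off than in Myc (-0.48 ± 0.17, adjusted p = 0.015), the last not without ID150584 (-0.35, adjusted p = 0.13). Nme2 was called in neither comparison (-0.03 ± 0.13, adjusted p = 0.83 and 0.16 ± 0.18, adjusted p = 0.49). Under quantile normalisation it was higher in Myc tumours (0.39, adjusted p = 4e-04). The 2 genes are near-identical neighbours, and both share exon bases with the annotated gene Gm20390 (GENCODE vM21), so how their shared reads were divided is uncertain.

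In the folate cycle the mitochondrial dehydrogenases and ligase rose, and the other 3 genes did not. Mthfd2, the mitochondrial dehydrogenase and cyclohydrolase, stood at 14.7, 10.98 and 16.9 eRPKM in the Myc-off IDs, 36.98 to 53.9 (median 47.4) in Myc and 1.16 to 6.31 (median 1.73) in control IDs. Mthfd1l, which releases formate from mitochondria, stood at 8.75, 5.17 and 10.1 in the Myc-off IDs, 27.4 to 41.5 (median 35.5) in Myc and 0.989 to 5.82 (median 1.88) in control IDs. For both genes every Myc ID was several times any control ID. Mthfd2 rose by a log2 fold change of 4.05 ± 0.22 in Myc over control and fell by 1.66 ± 0.31 in Myc-off over Myc (adjusted p = 5.9e-17 and 4.9e-05). Mthfd1l rose by 3.93 ± 0.19 and fell by 2.11 ± 0.26 (adjusted p = 2.0e-18 and 7.8e-08). Mthfd2l, the paralogue of Mthfd2, stood at 4.12, 2.34 and 2.82, 7.37 to 8.73 (median 7.70) and 1.000 to 2.10 (median 1.63) in the same groups, with log2 fold changes of 2.02 ± 0.23 and -1.23 ± 0.33 (adjusted p = 2.7e-09 and 0.0025). All 3 were also higher in Myc-off tumours than in control livers, by 2.39 ± 0.29, 1.82 ± 0.25 and 0.79 ± 0.31 (adjusted p = 4.1e-08, 2.9e-07 and 0.031). Mthfd2l was not called without ID150584 (0.59, adjusted p = 0.18) or ID153344 (0.83, adjusted p = 0.066).

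Shmt2, the mitochondrial serine hydroxymethyltransferase, was abundant in liver and was not called in Myc over control. It stood at 66.7, 72.9 and 38.9 eRPKM in the Myc-off IDs, 87.6 to 102 (median 92.7) in Myc and 78.6 to 101 (median 85.6) in control IDs. Its log2 fold change was 0.11 ± 0.08 in Myc over control (adjusted p = 0.18) and -0.71 ± 0.11 in Myc-off over Myc (adjusted p = 3.9e-06). Shmt1, the cytosolic enzyme, stood at 57.4, 56.2 and 61.1 in the Myc-off IDs, 67.1 to 88.8 (median 73.1) in Myc and 77.5 to 116 (median 94.3) in control IDs. It was lower in Myc than in control (-0.34 ± 0.08, adjusted p = 1.5e-04) and lower again in Myc-off than in Myc (-0.37 ± 0.11, adjusted p = 0.0048). The first of these had the opposite sign under quantile normalisation (0.10, adjusted p = 0.076). For Shmt1 and Shmt2 every Myc-off ID lay below every control ID (-0.72 ± 0.10 and -0.60 ± 0.11; adjusted p = 6.0e-07 and 1.7e-05). Mthfd1, the cytosolic trifunctional enzyme, stood at 68.7, 51.01 and 57.3, 56.4 to 95.5 (median 73.9) and 56.4 to 121 (median 74.1) eRPKM in Myc-off, Myc and control IDs. It was called in neither comparison (-0.08 ± 0.12, adjusted p = 0.56 and -0.27 ± 0.17, adjusted p = 0.19). Shmt2, Shmt1 and Mthfd1 are among the 11 of the 32 genes that averaged over 400 reads per kb, where values appear compressed: the highest gene of each library reached only 1461 to 2182 reads per kb. With the reads per kb corrected for shared start positions Shmt2 was higher in Myc than in control (0.31, adjusted p = 0.002).

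**Figure D3:**
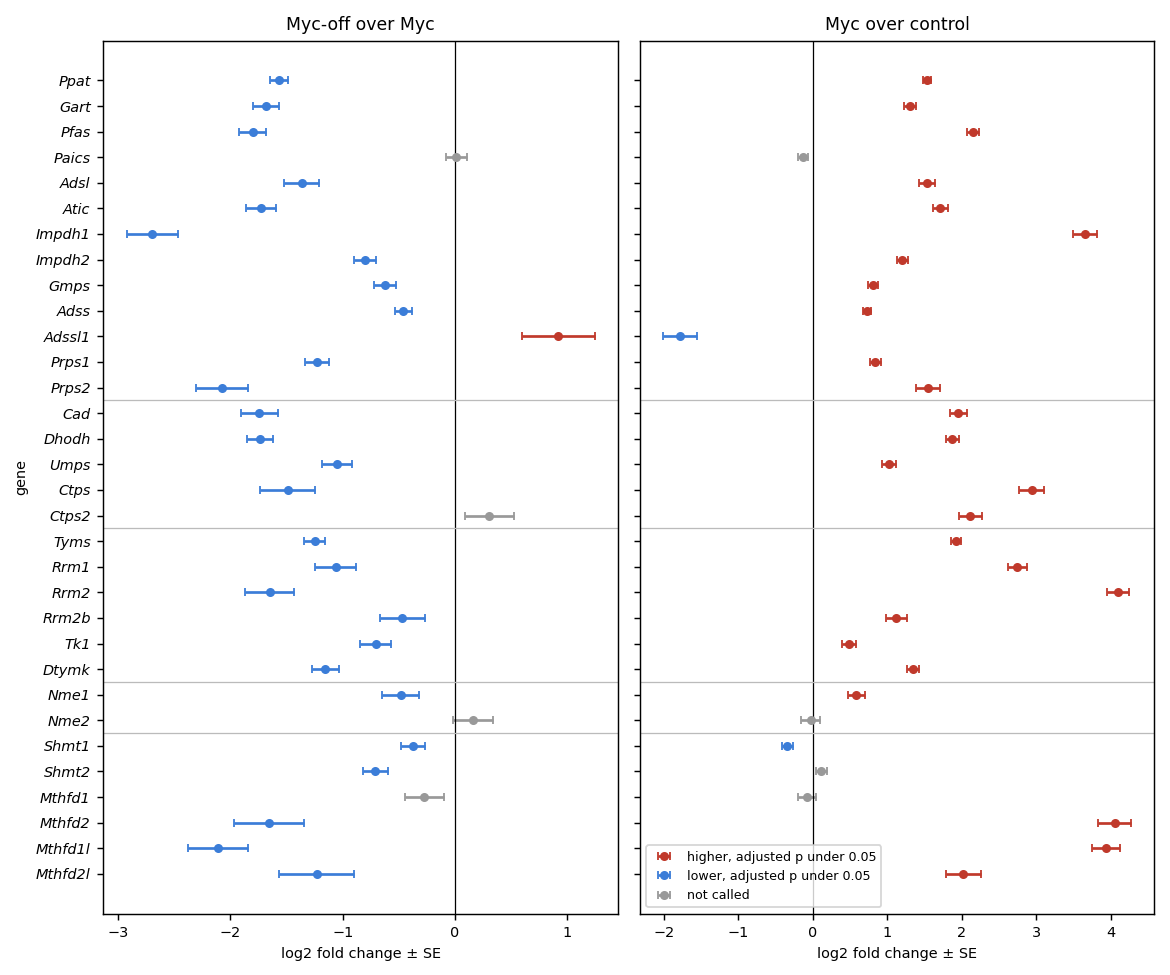
Log2 fold change ± SE (horizontal axes) of the 32 genes (rows, in the order purine, pyrimidine, deoxynucleotide, nucleoside diphosphate kinase, folate) for Myc-off over Myc (left) and Myc over control (right). Red points were called higher, blue points lower and grey points not called at an adjusted p under 0.05; the left panel has 27 blue points and 1 red, the right panel 26 red and 2 blue.

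Paired enzymes shifted in their ratio. The log2 ratio of 8 pairs was compared over IDs in all 5 comparisons with two-sided permutation tests, exact except for MycVD over control (100000 resamples), and adjusted over the 40 tests; 27 passed. For Myc-off against Myc the smallest p that 3 against 7 IDs allow is 0.017, an adjusted 0.027 here. Impdh2 over Impdh1 was 3.41 ± 0.36 in Myc-off (SD, n = 3), 1.52 ± 0.14 in Myc (n = 7) and 3.97 ± 0.31 in control IDs (n = 11). The ratio was thus lowest in Myc tumours, with no overlap between Myc and either of the other groups (adjusted p = 2.3e-04 against control, exact, and 0.027 for Myc-off against Myc, exact). With the reads per kb corrected for shared start positions, the differences became -2.16 for Myc against control and 1.65 for Myc-off against Myc, from -2.45 and 1.89 (adjusted p = 2.3e-04 and 0.026, exact). Adss over Adssl1 was 1.80 ± 0.71 in Myc-off, 3.17 ± 0.39 in Myc and 0.67 ± 0.48 in control IDs. Rrm2 over Rrm2b was 2.19 ± 0.32, 3.36 ± 0.16 and 0.39 ± 0.39. Both ratios were higher in Myc than in control (adjusted p = 2.3e-04 each, exact) and lower in Myc-off than in Myc (adjusted p = 0.027 each, exact). Ctps over Ctps2 was -0.39 ± 1.20 in Myc-off, 1.40 ± 0.09 in Myc and 0.58 ± 0.43 in control IDs, a fall of every Myc-off ID below every Myc ID (adjusted p = 0.027, exact). Mthfd2 over Mthfd2l was 2.04 ± 0.34, 2.47 ± 0.24 and 0.44 ± 0.71 in the same groups. It was higher in Myc than in control (adjusted p = 2.3e-04, exact) and not called in Myc-off against Myc (adjusted p = 0.12, exact; with the start correction the difference was -0.57, adjusted p = 0.0479). Nme1 over Nme2 was -1.01 ± 0.14 in Myc-off, -0.37 ± 0.11 in Myc and -0.98 ± 0.22 in control IDs (adjusted p = 0.027 for Myc-off against Myc and 2.3e-04 for Myc against control, exact). Nme1 and Nme2 averaged 478 and 704 reads per kb, where values appear compressed, and how their shared reads were divided is uncertain. The ratios of Prps1 over Prps2 and of Shmt2 over Shmt1 differed between Myc and control (-0.71 and 0.46; adjusted p = 2.3e-04 and 6.3e-04, exact) and were not called in Myc-off against Myc (adjusted p = 0.16 and 0.26, exact). Shmt2 and Shmt1 averaged 723 and 672 reads per kb, where values likewise appear compressed.

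**Figure D4:**
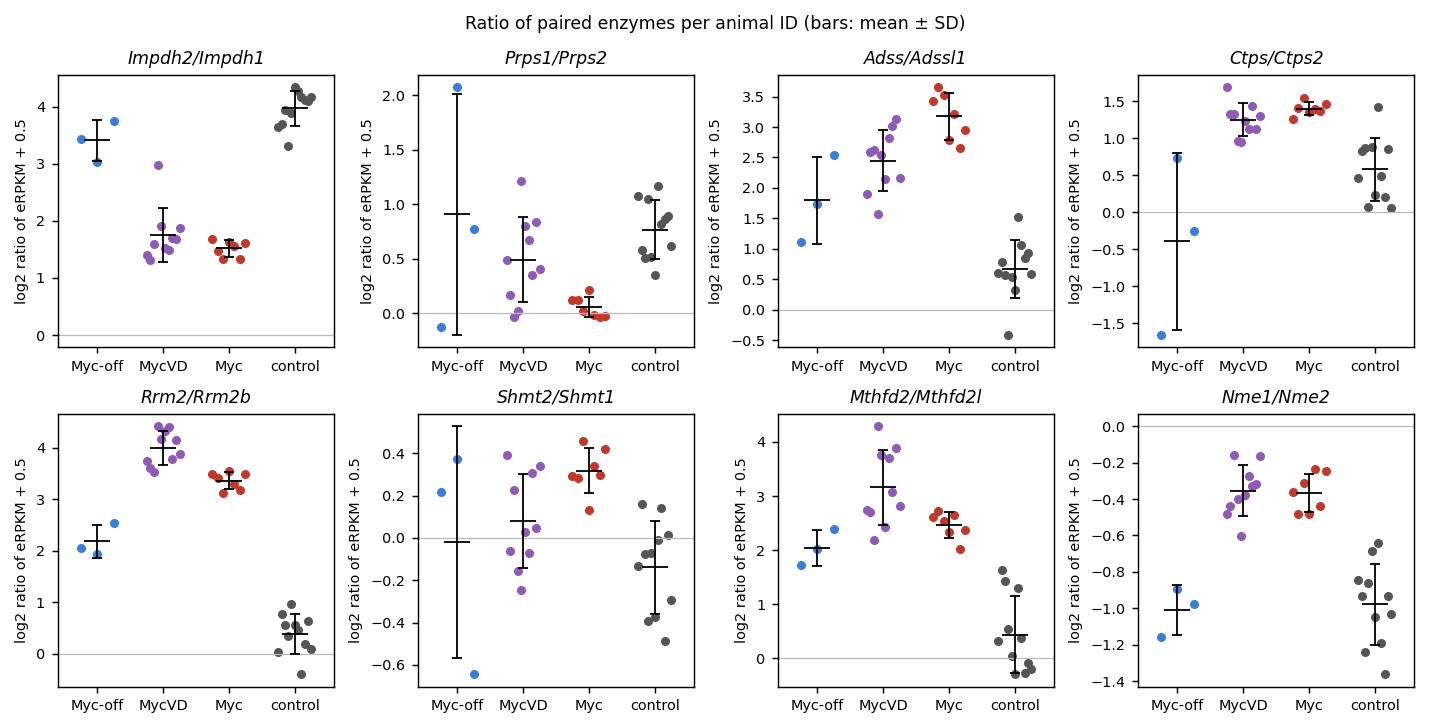
Log2 ratio of eRPKM + 0.5 (vertical axes) of 8 enzyme pairs in each animal ID (points) of the Myc-off, MycVD, Myc and control groups; black bars give mean ± SD over IDs and the grey line equal levels. Impdh2/Impdh1 is lowest in MycVD and Myc, Rrm2/Rrm2b is lowest in control, and the 3 Myc-off IDs are spread widely for Prps1/Prps2, Ctps/Ctps2 and Shmt2/Shmt1.

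Of the 32 genes 1 was higher and 3 were lower in MycVD than in Myc tumours, where 6.14% of all genes tested were called higher and 9.69% lower, and 28 were not called. These shares lie close to those of all genes, and nothing particular to the 32 is read from them. For those 28 the log2 fold changes ran from -0.63 (Mthfd2) to 0.26 (Nme1), with standard errors of 0.05 to 0.22. A missed threshold does not show these levels to be alike. Against control livers, 26 of the 32 were higher in MycVD tumours and 1 lower, where 49.2% and 31.1% of all genes tested were called. The median log2 fold change was 1.27, against 0.22 over all genes tested. Cad averaged 69.7 ± 4.56 eRPKM in MycVD and 69.5 ± 2.27 in Myc IDs. Rrm2 averaged 70.6 ± 6.15 and 71.5 ± 3.76, and Impdh2 averaged 118 ± 12.5 and 108 ± 8.86 (SD; n = 10 and 7). Cad, Rrm2 and Impdh2 averaged 431, 419 and 759 reads per kb over all libraries, and values above 400 reads per kb appear compressed. Their near-equal levels therefore do not show that the tumour types are alike. The summed cycling markers were 573 to 747 eRPKM in MycVD IDs and 577.5 to 752.5 in Myc IDs, and none of the 10 was called. Of the hepatocyte markers 1 of 8 was higher, at a summed 513 to 846 eRPKM in MycVD and 353 to 651 in Myc IDs. Of the macrophage markers 3 of 5 were lower, at 61.1 to 120.2 and 106 to 120.1. Their part in the differences that follow was not tested.

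The largest difference between the tumour types was in Mthfd2l, at 0.93 to 5.47 eRPKM (median 3.64) in MycVD and 7.37 to 8.73 (median 7.70) in Myc IDs. Every MycVD ID lay below every Myc ID, and the MycVD IDs fell into 4 at 0.93 to 1.83 and 6 at 3.35 to 5.47 eRPKM. The log2 fold change was -1.32 ± 0.24 (adjusted p = 2.6e-04). Rrm2b lay at 2.60 to 5.45 (median 3.75) eRPKM in MycVD and 5.90 to 7.36 (median 6.32) in Myc IDs, without overlap (-0.66 ± 0.14, adjusted p = 0.002). Prps2 lay at 22.1 to 41.1 (median 30.6) in MycVD and 44.2 to 48.3 (median 45.3) in Myc IDs, again without overlap (-0.55 ± 0.16, adjusted p = 0.021), and was not called with depth as a term (-0.45, adjusted p = 0.17). Adssl1 was higher in MycVD, at 4.37 to 15.5 (median 6.49) against 2.86 to 6.22 (median 3.88) in Myc IDs (0.69 ± 0.23, adjusted p = 0.041). The call was not kept without MycVD ID133762 (0.56, adjusted p = 0.082) and with depth as a term (0.54, adjusted p = 0.26). Mthfd2 averaged 30.1 ± 8.54 eRPKM in MycVD and 45.5 ± 6.24 in Myc IDs and just missed the threshold (-0.63 ± 0.22, adjusted p = 0.0531), and 5 of the alternatives called it lower. The ratio of Rrm2 over Rrm2b was 4.001 ± 0.33 in MycVD and 3.36 ± 0.16 in Myc IDs (adjusted p = 6.3e-04, exact). Prps1/Prps2 (0.435) and Mthfd2/Mthfd2l (0.69) were also higher in MycVD (adjusted p = 0.015 and 0.03, exact permutation). Adss/Adssl1 (-0.72) and Shmt2/Shmt1 (-0.24) were lower (adjusted p = 0.012 and 0.03, exact permutation). Impdh2/Impdh1, Ctps/Ctps2 and Nme1/Nme2 were not called (adjusted p = 0.21, 0.14 and 0.86, exact permutation).

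**Figure D5:**
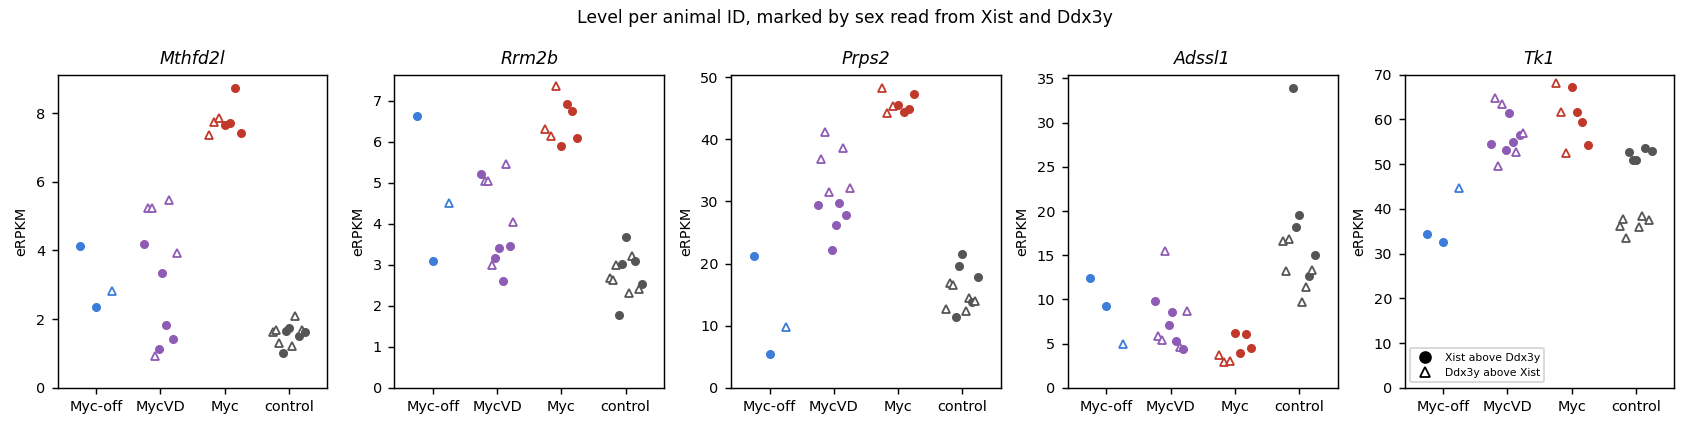
Level in eRPKM (vertical axes, from 0) of Mthfd2l, Rrm2b, Prps2, Adssl1 and Tk1 in each animal ID of the Myc-off, MycVD, Myc and control groups; filled circles are IDs in which Xist exceeded Ddx3y, open triangles the reverse. Mthfd2l, Rrm2b and Prps2 are lower in MycVD than in Myc without overlap, and the control IDs of Tk1 split by symbol, at 50.8 to 53.5 eRPKM for circles and 33.4 to 38.5 for triangles.

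Neighbouring pathways were examined with gene lists chosen as described under the processing, naming for each at most the 2 called genes with the largest change in a direction. Of 14 salvage genes, which recycle bases and nucleosides, 6 were higher and 8 lower in Myc tumours than in control livers. Over all genes tested, 50.4% were called higher and 29.7% lower in this comparison. Uck2, a uridine-cytidine kinase, averaged 18.6 ± 5.26 eRPKM in Myc-off, 59.9 ± 6.64 in Myc and 6.27 ± 1.58 in control IDs (Myc over control 3.18 ± 0.12, adjusted p = 6.2e-21; Myc-off over Myc -1.69 ± 0.17, adjusted p = 1.3e-09). Dck, deoxycytidine kinase, rose by 2.02 ± 0.10 (adjusted p = 2.6e-18), whereas Upp2, a uridine phosphorylase, and Cda, cytidine deaminase, were lower, with log2 fold changes of -3.54 ± 0.25 and -3.27 ± 0.30 (adjusted p = 4.8e-14 and 2.3e-11). Of 18 tested genes of nucleotide breakdown, 7 were higher and 9 lower in Myc tumours. Dpys, which opens the dihydropyrimidine ring, averaged 14.9 ± 9.91 eRPKM in Myc-off, 2.23 ± 2.03 in Myc and 76.8 ± 13.8 in control IDs. Urad, an enzyme of urate breakdown in mice, averaged 35.01 ± 20.8, 2.32 ± 1.18 and 83.6 ± 9.31. Both were lower in Myc than in control (-5.24 ± 0.45 and -5.00 ± 0.47; adjusted p = 4.4e-12 and 3.5e-11) and higher in Myc-off than in Myc (2.59 ± 0.64 and 3.55 ± 0.67; adjusted p = 0.0011 and 5.1e-05), alongside the hepatocyte markers, whose part was not tested.

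Of 22 further folate and glycine genes, 7 were higher and 12 lower in Myc tumours than in control. The shares over all genes tested, 50.4% higher and 29.7% lower, stand beside this list and the lists below. Slc19a1, the reduced folate carrier, averaged 5.38 ± 0.314 eRPKM in Myc-off, 40.1 ± 2.54 in Myc and 4.29 ± 0.911 in control IDs (Myc over control 3.10 ± 0.10, adjusted p = 1.7e-22; Myc-off over Myc -2.79 ± 0.14, adjusted p = 1.0e-15). Folr1, a folate receptor, averaged 7.98 ± 3.29, 6.82 ± 2.25 and 0.350 ± 0.172 in the same groups. Its Myc-off and Myc ranges overlapped, at 4.34 to 10.7 and 4.32 to 11.0 eRPKM. Aldh1l1, which oxidises formyl-folate in the cytosol, averaged 53.9 ± 13.7, 9.41 ± 5.47 and 133 ± 37.7 in the same groups (Myc over control -3.90 ± 0.26, adjusted p = 1.1e-14; Myc-off over Myc 2.62 ± 0.37, adjusted p = 6.7e-07). Its mitochondrial counterpart Aldh1l2 moved the other way between the tumour types: it averaged 2.09 ± 1.01 eRPKM in MycVD and 6.78 ± 3.27 in Myc IDs (-1.46 ± 0.20, adjusted p = 9.3e-06), while Aldh1l1 averaged 22.6 ± 8.95 and 9.41 ± 5.47 (1.33 ± 0.27, adjusted p = 8.9e-04). Of 12 methionine cycle genes, 4 were higher and 6 lower in Myc tumours. Mtr, methionine synthase, rose by 1.68 ± 0.12 in Myc over control and fell by 1.35 ± 0.17 in Myc-off over Myc (adjusted p = 7.5e-14 and 1.2e-07). Bhmt2, which methylates homocysteine without folate, moved by -2.30 ± 0.13 and 1.94 ± 0.19 (adjusted p = 1.9e-16 and 4.4e-10). Of 19 other kinases and dNTP genes, 13 were higher and 3 lower in Myc tumours. Dctd, the deaminase that makes deoxyuridylate, averaged 1.35 ± 0.238 eRPKM in Myc-off, 27.5 ± 3.78 in MycVD, 29.3 ± 1.52 in Myc and 0.195 ± 0.108 in control IDs. It was under 0.5 eRPKM in every control ID, rose by 5.44 ± 0.10 in Myc over control and fell by 4.02 ± 0.14 in Myc-off over Myc (adjusted p = 3.1e-28 and 1.4e-19). Nme4, the mitochondrial nucleoside diphosphate kinase, rose by 3.19 ± 0.13 and fell by 2.06 ± 0.19 (adjusted p = 1.1e-19 and 2.5e-10).

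The median spread between IDs was smaller in the Myc and MycVD tumours than in the other groups. The SD of log2(eRPKM + 0.5) between IDs had a median over the 32 genes of 0.23 in Myc-off, 0.15 in MycVD, 0.12 in Myc and 0.28 in control. Single genes were spread more, in MycVD at 0.81 for Mthfd2l and 0.54 for Adssl1. Most Myc and all Myc-off IDs are means of several libraries and control IDs are single libraries, so these spreads are not like for like. Prps2 was spread most among the Myc-off IDs, at 19.6, 23.2 and 20.98 eRPKM in the tumours of ID150584, 6.91 and 3.88 in those of ID151964 and 10.9, 9.88 and 8.47 in those of ID153344. In control livers, ID125322 had the highest value in 14 of the 32 genes, among them Mthfd1l at 5.82 eRPKM where the other 10 IDs lay at 0.99 to 2.02. Without that ID 26 of the 32 genes were higher and 2 lower in Myc than in control.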

How the data were processed

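RNA of 46 FVB mouse samples was depleted of ribosomal RNA with Ribozero and made into libraries with the TruSeq RNA v2 kit, per the labels' protocols. Strand is not marked by this kit, so reads of overlapping genes on opposite strands cannot be told apart. The authors deposited 1 table of exonic RPKM values (eRPKM) for 21671 genes. Per the submitters' processing notes, TopHat, TopHat2 2.0.8 and mm9 were used. How reads were counted, on which annotation, and what was done with duplicates, the labels and notes do not say. All 32 symbols were found, and 1 of the 4 groups was given by the label of every sample.

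From the steps of low values, gene lengths (18788 genes) and depth (3.25 to 12.6 M reads per library) were recovered. Within a tolerance of 0.001, 100% of the values of these genes were whole reads. Tumours of an animal ID, taken as 1 animal by assumption, were averaged. The lowest chi-square per degree of freedom between 2 libraries of a group was 3.34, so none was a sequencing repeat of another in its group. Pairs of libraries from different groups were not compared. Nothing states that IDs are independent litters, and p-values measure the spread between IDs.

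Tests covered the 14566 genes that reached 1 eRPKM in 3 or more IDs (7105 were removed, none of the 32), with limma 3.58.1 in R 4.3.3 (trend, all groups in 1 fit, no covariate) on log2(eRPKM + 0.5), adjusted by Benjamini-Hochberg over all genes at 0.05. Fold changes on this scale understate those of low genes. The procedure was tested on simulated data. Ratios were tested with scipy 1.17.1. Replicate numbers pair no samples across groups. Sequences are RefSeq's on GRCm38.p6, and exon overlaps GENCODE vM21's, a build other than that of the table, used for names and neighbours only. Every one of the 32 genes is named, and of each other list at most the 2 called genes with the largest change per direction. Members, lists and tests were chosen with earlier results of these data known. The sex comparison, and the fits without ID125322, without ID133762, without the shallowest library and with sex as a term, and the ratios with corrected start positions, were chosen after seeing the data.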

Additional observations from a re-analysis of the deposited data

Results flagged for a closer look

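Within the Myc and MycVD groups, 80 sets of ID values (32 genes and 8 ratios in each) were searched for a sample far from the others, and 4 were found, which is the 1 in 20 that chance gives. MycVD ID133762 accounted for 3 of them: Impdh1 was 17.0 eRPKM there against 31.4 in the next MycVD ID, Adssl1 was 15.5 against 9.77, and the log2 ratio of Impdh2 over Impdh1 was 2.97 against 1.91. The first and the last of these share the same Impdh1 value. Without that ID, 0 of the 32 genes were higher in MycVD than in Myc by limma, with 2 at an unadjusted p under 0.05 (Adssl1 and Shmt1), and 3 were lower. In Myc tumours, Mthfd2l was 8.73 eRPKM in ID128285 against 7.85 in the next ID.

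The difference in Tk1 between IDs with Xist above Ddx3y and those with Ddx3y above Xist was not the same in livers and tumours. The female minus male log2 difference was -0.03 in MycVD and 0.00 in Myc tumours, against 0.51 in control livers. The change of this difference was -0.51 ± 0.12 for Myc against control (limma, adjusted p = 0.0497) and -0.54 ± 0.10 for MycVD against control (limma, adjusted p = 0.006).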

How the results depend on the processing

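Over 160 single fold changes (32 genes in 5 comparisons), 119 kept their call under every alternative tried. In 53 of the 1856 alternative values the sign changed with no call on either side. Under quantile normalisation, Myc over control became 0.29 for Paics, 0.39 for Nme2, 0.31 for Mthfd1 and 0.10 for Shmt1, Myc-off over Myc -0.19 for Paics, MycVD over control 0.18 for Shmt1, and Myc-off over control -0.26 for Dhodh. With depth as a term Paics was -0.22 in Myc-off over Myc, and with median-ratio scaling -0.21 in MycVD over control. The cause was not tested.

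Counts of the 32 genes moved as follows. With median-ratio scaling 4 were lower in Myc over control, 3 in MycVD over control and 10 in Myc-off over control. With quantile normalisation 1 was lower in Myc over control and 5 in MycVD over Myc. With depth as a term 1 was lower in Myc over control, and by limma 0 were higher in Myc-off over Myc and in MycVD over Myc (0 in each at an unadjusted p under 0.05). Without the filter 0 (3 at an unadjusted p under 0.05 by limma), and with sex as a term 2, were higher in MycVD over Myc. Without MycVD ID133762 there were 0 higher against Myc (2 unadjusted, by limma) and 2 lower against control. Leaving out each Myc-off ID gave 0 to 1 higher in Myc-off over Myc, where the unadjusted count by limma was 0 without ID150584 and 1 without ID151964. The counts of higher genes against control moved by less than 1.5 times under every alternative. Scaling shifted the median of all genes in Myc over control to 0.05 from 0.28, and the share of higher calls to 51.9% from 62.9%; in MycVD over control this share went to 50.6% from 61.3%, and in Myc-off over control to 49.7% from 64.1%. In MycVD over Myc it was 61.3% with depth as a term, 51.4% with quantile normalisation, 47.5% with scaling and 38.8% as deposited. Of the 40 isozyme ratio tests, 37 kept their call with the start correction, 2 were called only with it and 1 only without it. No paired analysis was possible because the replicate numbers only name samples in accession order. Levels above 400 reads per kb appear compressed, and Mthfd2 rests on as few as 14 reads in a library.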
